A study of Homo sapiens with 9 samples.

Results

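The kinase mTOR, its complex partners, the RHEB and TSC genes that set its activity and the AKT kinases were followed in MIA PaCa-2, an established human pancreatic cancer cell line. The 9 genes were MTOR, RPTOR, RICTOR, DEPTOR, RHEB, TSC1, TSC2, AKT1 and AKT2, taken by symbol from a table of read counts over 58735 genes, and each symbol matched 1 gene. Cells labelled wild type, which all 9 samples share, were treated for 24-h with 0.1% DMSO as the vehicle, with 1 μM SCH772984, an inhibitor of the ERK kinases, or with 1 μM compound 1, an inhibitor of TBK1 and IKKε, and 3 libraries were sequenced for each condition. The labels number the replicates but do not say that they came from separate cultures, so p-values measure the spread between these libraries, which may be technical. The table gives RNA only, with no measure of protein or of phosphorylation, and in bulk RNA fewer expressing cells and less RNA per cell cannot be told apart.

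mTOR is a kinase that works in a pair of complexes. With Raptor, the product of RPTOR, it forms mTORC1, which drives protein synthesis and restrains autophagy, and with Rictor, the product of RICTOR, it forms mTORC2, which phosphorylates AKT. The GTPase RHEB switches mTORC1 on at the lysosome, the TSC1-TSC2 complex keeps RHEB in its inactive form, and AKT and ERK phosphorylate TSC2 and so relieve that brake. In pancreatic cancer cells the pathway is known as a growth-promoting route that runs beside RAF, MEK and ERK.

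Libraries held 9464432 to 10286223 counts with DMSO, 9652741 to 9840769 with compound 1 and 11056977 to 13887859 with SCH772984. Mitochondrially encoded genes took 3.33 to 3.98% of counts with DMSO, 3.41 to 3.92% with compound 1 and 6.23 to 7.52% with SCH772984, and the part of this difference in the results was not tested. Compound 1 replicate 1 stood apart from the other libraries of its group, with a chi-square over its degrees of freedom, computed across genes, of 10.1 and 7.61 against replicates 2 and 3, compared with 2.66 between those. The range within DMSO was 2.34 to 3.15 and within SCH772984 4.03 to 6.40. Of the defining markers, KRT8 (8578 to 24914 counts), KRT18 and KRT19 were present in every library, CDH1 had 0 to 5 counts, and EPCAM, the acinar genes PRSS1 and CPA1, the islet gene INS and the blood cell gene PTPRC were at 0 in all 9. The summed CPM (TMM-normalized, so that library depth is taken out) of the 5 epithelial markers was 3499 to 3757 with DMSO, 2989 to 3703 with compound 1 and 1095 to 1284 with SCH772984. For the 5 pancreatic markers it was 125 to 131.1, 113.8 to 125.8 and 52.8 to 58.0. For the 6 blood, vessel and fibroblast markers, of which COL1A2 gave most of the counts, it was 467.1 to 514.9, 478.9 to 534.4 and 990.3 to 1111. Single markers did not all follow these sums, since KRT19 was at 0.11 on the log2 scale with SCH772984 and CDH5 went from 28 to 40 counts in DMSO to 0 to 4, while SOX9 gave most of the pancreatic counts. The part of these marker shifts in the results was not tested. Of 9 tested genes on a list of 10 known ERK output genes, 8 fell and 1 rose with SCH772984, the 8 including 3 that reached the filter on low counts only through DMSO, against 35.5% lower and 37.2% higher among all genes tested, and 0 passed with compound 1, against 0.374% and 0.49%.

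Among the 9 genes, transcript abundance in the vehicle spanned a wide range. Levels between genes were compared as TMM-normalized CPM per kilobase of the gene length given in the table. RHEB was the most abundant in DMSO (44.4 ± 0.55 CPM per kb, SD, n = 3 libraries), followed by AKT1 (25.0 ± 0.22), MTOR (22.0 ± 0.45) and AKT2 (13.5 ± 0.26). RPTOR, the mTORC1 scaffold, stood at 7.57 ± 0.25 CPM per kb, TSC2 at 3.58 ± 0.30, TSC1 at 2.33 ± 0.23 and RICTOR at 1.75 ± 0.22. DEPTOR, which encodes a protein that binds and inhibits mTOR, was close to the limit of detection at 0.248 ± 0.086 CPM per kb, from 6, 8 and 4 counts. No neighbors in this order had overlapping libraries. In SCH772984 MTOR (15.3 ± 0.74) lay above AKT1 (11.5 ± 0.53), the libraries of AKT1 and AKT2 (10.5 ± 0.60) overlapped, and so did those of RPTOR (5.81 ± 0.20) and TSC2 (5.32 ± 0.35). With the length of the principal transcript, an alternative chosen after seeing the data, AKT2 (38.4 ± 0.73) moved above MTOR (30.7 ± 0.62) in DMSO, and RPTOR and TSC2 overlapped there. In SCH772984, by that length, AKT1 (32.8 ± 1.52) stayed above MTOR (21.3 ± 1.03), and TSC2 (16.9 ± 1.12) lay above RPTOR (9.34 ± 0.32).

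The genes lie on 9 different chromosomes. On GRCh38, the build of the files, 8 of them are at chr1:11106535-11262507 (MTOR), chr17:80544819-80966371 (RPTOR), chr5:38937919-39074408 (RICTOR), chr7:151466012-151520120 (RHEB), chr9:132891348-132946874 (TSC1), chr16:2047465-2089487 (TSC2), chr14:104769349-104795751 (AKT1) and chr19:40230317-40285536 (AKT2). RPTOR, DEPTOR and TSC2 are on the plus strand and the others on the minus strand.

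Promoter windows, the 250 bases before a RefSeq start on GRCh38.p14, were read for 8 of the genes, DEPTOR excepted. AKT1, AKT2 and TSC2 have 2 windows each, which makes 11, and those of TSC2 overlap each other. Those of RICTOR, which rose with SCH772984, and of MTOR and AKT1, which fell, are printed because they hold at most 9 bases of their gene's annotated exons. Capitals mark GC boxes (GGGCGG on either strand), and the sequences run 5′ to 3′ on the gene's strand, at chr1:11262552-11262801 (minus), chr5:39074400-39074649 (minus) and chr14:104795749-104795998 (minus).
MTOR: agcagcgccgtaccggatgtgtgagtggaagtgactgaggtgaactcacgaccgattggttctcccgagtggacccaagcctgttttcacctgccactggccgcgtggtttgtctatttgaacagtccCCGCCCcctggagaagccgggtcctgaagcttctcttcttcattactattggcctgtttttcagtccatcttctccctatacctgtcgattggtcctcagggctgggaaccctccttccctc
RICTOR: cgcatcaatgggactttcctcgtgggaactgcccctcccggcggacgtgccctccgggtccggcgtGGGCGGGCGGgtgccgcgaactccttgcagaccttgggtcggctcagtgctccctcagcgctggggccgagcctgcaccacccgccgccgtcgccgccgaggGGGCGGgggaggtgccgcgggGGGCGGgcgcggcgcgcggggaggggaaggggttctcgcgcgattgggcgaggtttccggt
AKT1: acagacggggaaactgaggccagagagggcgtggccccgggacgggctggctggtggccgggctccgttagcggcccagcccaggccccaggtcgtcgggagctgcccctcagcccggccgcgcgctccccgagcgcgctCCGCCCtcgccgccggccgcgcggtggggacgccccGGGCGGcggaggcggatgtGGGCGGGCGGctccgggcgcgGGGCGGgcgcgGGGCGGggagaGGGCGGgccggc
These windows hold 1 match in MTOR, 4 in RICTOR and 7 in AKT1, with overlapping matches counted separately, and their GC content is 55.6%, 76% and 83.2%. A GC box was in 10 of the 11 windows, RPTOR excepted, against 42.6% of 35116 RefSeq windows of the same length. The letters CCGGAAGT, a site of ETS family transcription factors, were in both overlapping windows of TSC2, which share the 1 site, and in none of the others (3.42% of all windows). The E-box CACGTG was in 1 window of TSC2 (6.34% of all), and the AP-1 letters TGANTCA (6.57% of all) and the FOXO letters GTAAACA (2.98% of all) were in none. Both strands were searched. The TSC2 stretches with these letters in capitals, at chr16:2047960-2047983 and chr16:2047863-2047884 on the plus strand within annotated TSC2 exons, are
TSC2 ETS: tgccgctaCCGGAAGTgcgggtcg
TSC2 E-box: ggccccgtCACGTGatgcaagg

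Treatment with SCH772984 lowered the kinase genes and RPTOR and RHEB and raised both TSC genes and RICTOR. MTOR, RPTOR, RHEB, AKT1 and AKT2 fell and RICTOR, TSC1 and TSC2 rose in the test against DMSO (edgeR's quasi-likelihood test, Benjamini-Hochberg adjusted p under 0.05 over all genes tested), which makes 5 lower and 3 higher. DEPTOR also passed, as higher, but entered the test only through its SCH772984 libraries and is left out of these counts. For each of the 9 genes the 3 SCH772984 libraries lay apart from the 3 DMSO libraries. Of the 13834 genes tested, 35.5% were lower and 37.2% higher in this comparison, so a change in either direction was common. The median log2 fold change was -0.35 over the 9 genes, DEPTOR included, and 0.03 over all genes tested.

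**Figure D1:**
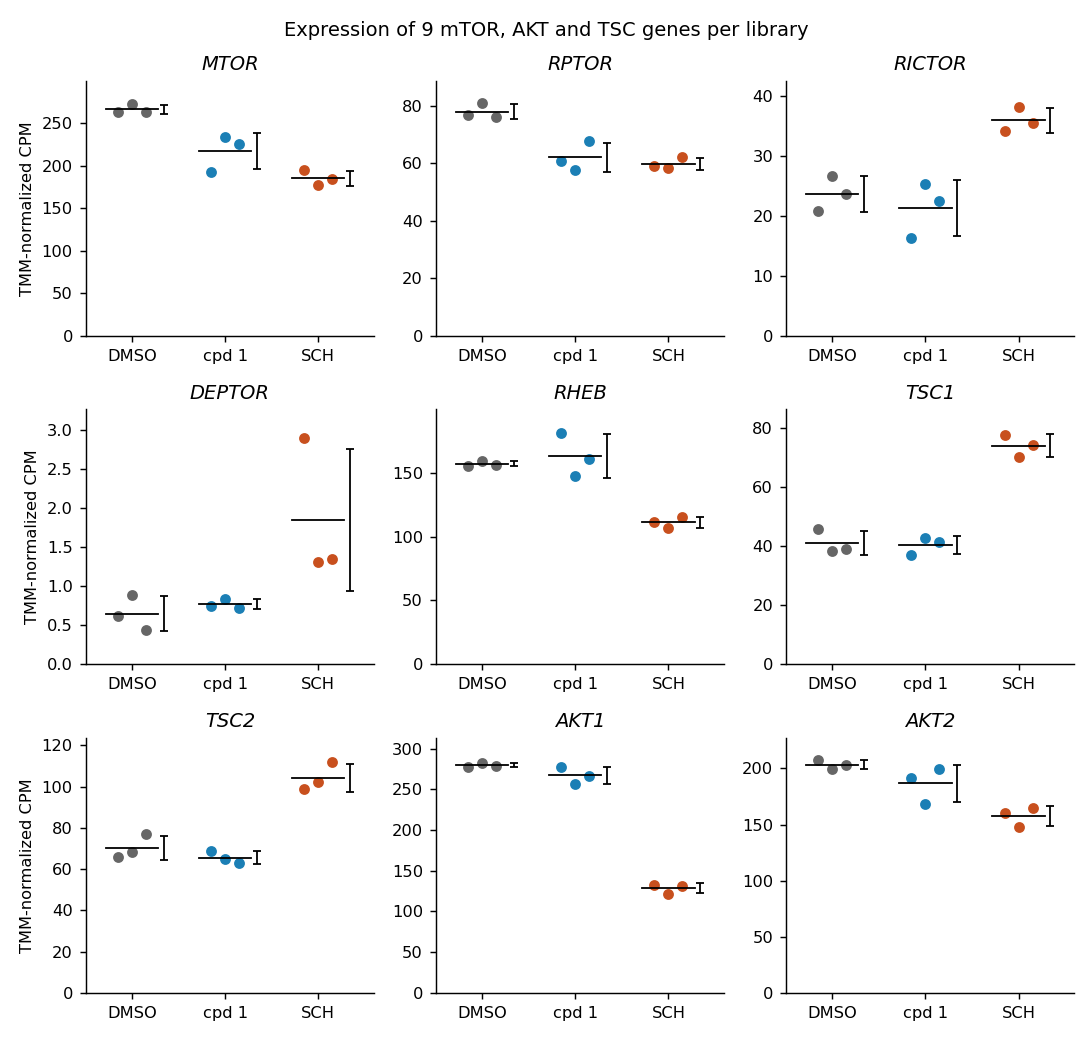
Expression of the 9 genes in each library, as TMM-normalized CPM on axes that start at 0, with DMSO in gray, compound 1 (cpd 1) in blue and SCH772984 (SCH) in orange; horizontal lines are means and bars beside them the SD over 3 libraries. The orange points lie below all gray points for MTOR, RPTOR, RHEB, AKT1 and AKT2 and above them for RICTOR, DEPTOR, TSC1 and TSC2.

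AKT1, the main AKT kinase gene here and one of the targets of mTORC2, showed the strongest reduction. Its level was 277, 281.9 and 279.2 CPM in the DMSO libraries and 132, 121.6 and 131.8 CPM in the SCH772984 libraries. Every SCH772984 library was thus under every DMSO library, at 46.0% of the DMSO mean, with a log2 fold change of -1.10 (SE 0.06, edgeR adjusted p = 2.88e-20). AKT2, the paralogue best known for insulin signaling, changed less, from 207.4, 199.6 and 203 CPM to 160.3, 147.8 and 165.1 CPM. Its log2 fold change was -0.35 (SE 0.06, edgeR adjusted p = 4.67e-06). The groups of AKT2 did not overlap, but the lowest DMSO and the highest SCH772984 library were closer than for AKT1.

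MTOR itself was at 263, 272.2 and 262.7 CPM in DMSO and at 194.4, 176.6 and 184.5 CPM in SCH772984. This is 69.6% of the DMSO mean, with a log2 fold change of -0.50 (SE 0.06, edgeR adjusted p = 1e-09). The libraries of the groups did not overlap, and the spread within each was small beside the gap. RPTOR, which encodes the subunit that brings substrates to mTORC1, went from 76.9, 80.9 and 76.1 CPM to 59.1, 58.3 and 62.1 CPM. Its log2 fold change of -0.36 (SE 0.07, edgeR adjusted p = 3.71e-05) was of about the size seen for AKT2.

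RHEB, the GTPase that switches mTORC1 on, was at 155.3, 159 and 156.2 CPM in DMSO and at 111.2, 106.5 and 115.5 CPM in SCH772984. The log2 fold change was -0.48 (SE 0.07, edgeR adjusted p = 1.31e-08), and all SCH772984 libraries were under all DMSO libraries. Its inhibitors moved the other way. TSC1, the subunit that stabilizes the TSC complex, rose from 45.7, 38.5 and 39.0 CPM to 77.6, 70 and 74.3 CPM, a log2 fold change of 0.87 (SE 0.08, edgeR adjusted p = 8.73e-13). TSC2, the subunit that acts on RHEB, was at 65.9, 68.1 and 76.9 CPM in DMSO and at 98.7, 102.4 and 112 CPM in SCH772984. Its log2 fold change was 0.59 (SE 0.07, edgeR adjusted p = 1.97e-09), and the groups did not overlap for either gene. After seeing the data, an alternative was added in which the dependence of each library on GC content and gene length was taken out, and under it the value for TSC2 fell to 0.12 (edgeR adjusted p = 0.0808) and no longer passed, while TSC1 stayed higher at 0.68 (edgeR adjusted p = 1.41e-11).

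RICTOR, the scaffold of mTORC2, increased from 20.7, 26.6 and 23.6 CPM to 34.2, 38.2 and 35.5 CPM. The log2 fold change was 0.63 (SE 0.10, edgeR adjusted p = 7.24e-07), opposite in sign to that of the mTORC1 scaffold. DEPTOR had 6, 8 and 4 counts in DMSO and 35, 16 and 20 counts in SCH772984, and passed the filter on low counts only through the latter, so that a difference was built into its being tested. The lowest SCH772984 library had more counts than the highest DMSO library, and the log2 fold change was 1.5 (SE 0.45, 95% interval 0.60 to 2.4, edgeR adjusted p = 0.00272). Without SCH772984 replicate 1, which had the most DEPTOR counts, it was 1.03 with an adjusted p of 0.0609, so the call rests on that library.

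The sizes of the smaller changes depended on the scaling. Scaling by library size alone moved the median over all genes tested with SCH772984 from a log2 fold change of 0.03 to 0.20, and the table holds 0 spike-in RNAs. All 9 genes kept their direction and their call under it. The value for MTOR was then -0.33 (adjusted p = 6.55e-06), for RHEB -0.30 (adjusted p = 5.88e-05), for RPTOR -0.18 (adjusted p = 0.0231) and for AKT2 -0.17 (adjusted p = 0.0121). With the trend in length and GC content removed, RPTOR (-0.65) and AKT2 (-0.68) changed more, and AKT1 was at -1.47.

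**Figure D2:**
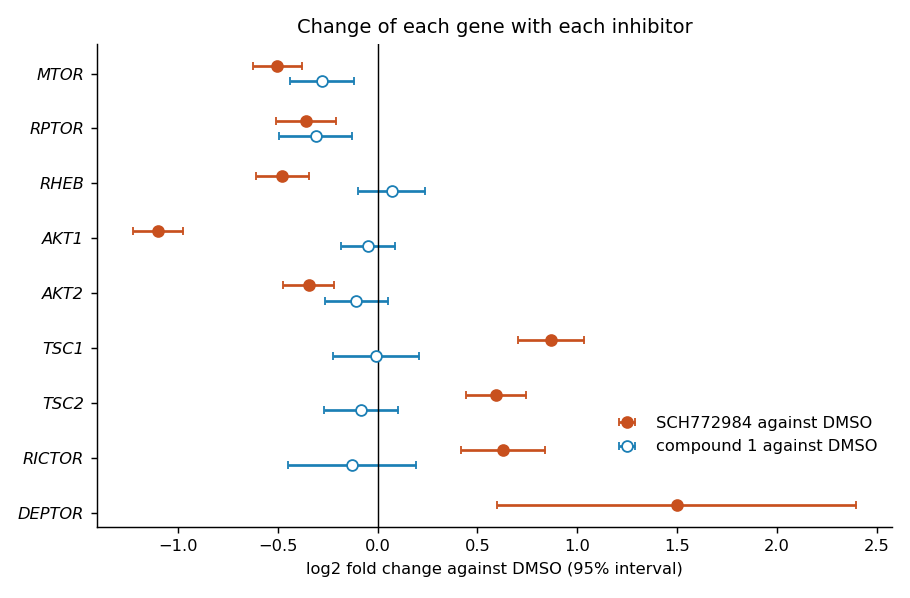
Log2 fold change of each gene against DMSO with its 95% interval, SCH772984 in orange and compound 1 in blue; filled points have an edgeR adjusted p under 0.05 and open points do not. All 9 orange points are filled, from -1.10 for AKT1 to 1.5 for DEPTOR, and all 8 blue points are open, with MTOR (-0.28) and RPTOR (-0.31) farthest from 0; DEPTOR has no blue point because it was filtered out for low counts.

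Treatment with compound 1 left 0 of the 8 genes tested past the adjusted threshold, against 0.374% lower and 0.49% higher among the 12849 genes tested. DEPTOR, with 7, 8 and 7 counts, was removed by the filter on low counts. MTOR and RPTOR were the 2 genes with an unadjusted p under 0.05, both lower, against 7.69% of all genes lower and 7.35% higher at that threshold. MTOR was at 192.9, 232.9 and 224.7 CPM, with a log2 fold change of -0.28 (SE 0.08) and an edgeR p of 0.00212 before and 0.094 after adjustment. RPTOR was at 60.8, 57.8 and 67.8 CPM, with a log2 fold change of -0.31 (SE 0.09) and an edgeR p of 0.00241 before and 0.0974 after adjustment. For both genes all 3 compound 1 libraries were under all 3 DMSO libraries. Without compound 1 replicate 1, the library that stood apart and had the lowest MTOR level of the group, the values were -0.20 for MTOR (edgeR adjusted p = 0.0105) and -0.30 for RPTOR (edgeR adjusted p = 0.00944), so both passed, in a fit in which 798 of 13084 genes were lower after adjustment. Both also passed with no filter on low counts (edgeR adjusted p = 0.0154 for MTOR and 0.0411 for RPTOR), where 228 of 25883 genes were lower, and MTOR with the length and GC trend removed (-0.20, edgeR adjusted p = 0.0465), where 225 of 12845 were. With other libraries left out the adjusted p rose as high as 0.423 for MTOR and 0.435 for RPTOR.

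The other genes tested with compound 1 had log2 fold changes between -0.13 and 0.07, with edgeR adjusted p of 0.544 to 0.981. RHEB was at 180.8, 147.1 and 160.5 CPM (interval of the log2 fold change -0.10 to 0.24), and replicate 1 was again the outermost library. AKT1 was at 277.2, 257.1 and 266.8 CPM (interval -0.18 to 0.09), and AKT2 at 191.9, 168.6 and 199.8 CPM (interval -0.26 to 0.05). For TSC1, at 37.0, 42.6 and 41.5 CPM, the interval was -0.22 to 0.21, and for TSC2, at 68.9, 65.1 and 62.9 CPM, it was -0.27 to 0.10. RICTOR had 16.3, 25.3 and 22.4 CPM and the widest interval of these, -0.45 to 0.19. The libraries of these genes overlapped those of DMSO.

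The inhibitors were also compared with each other directly, since both comparisons above share the DMSO libraries. Relative to compound 1, SCH772984 left 4 of the 9 genes lower and 3 higher, not counting DEPTOR, against 32.6% lower and 33.7% higher among the 13863 genes tested. AKT1 (-1.04, SE 0.08, edgeR adjusted p = 5.08e-10) and RHEB (-0.54, SE 0.09, edgeR adjusted p = 2.5e-05) were lower. TSC1 (0.89, SE 0.10, edgeR adjusted p = 1.04e-07), RICTOR (0.77, SE 0.14, edgeR adjusted p = 4.83e-05) and TSC2 (0.68, SE 0.09, edgeR adjusted p = 1.49e-06) were higher. TSC2 again lost its call with the length and GC trend removed (0.10, edgeR adjusted p = 0.263). DEPTOR, which again entered the test only through the SCH772984 libraries, was higher by 1.25 (SE 0.43, edgeR adjusted p = 0.0144), and without SCH772984 replicate 1 by 0.79 (adjusted p = 0.133).

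For MTOR and AKT2 the difference between the inhibitors was smaller, and its size and call depended on the setting. The log2 fold change of MTOR with SCH772984 against compound 1 was -0.21 (SE 0.09, edgeR adjusted p = 0.0373), and that of AKT2 was -0.23 (SE 0.09, edgeR adjusted p = 0.0241). The call for MTOR was lost without compound 1 replicate 2 (adjusted p = 0.131), compound 1 replicate 3 (0.0949), SCH772984 replicate 2 (0.129) or SCH772984 replicate 3 (0.101). The call for AKT2 was lost without compound 1 replicate 3 (adjusted p = 0.104) or SCH772984 replicate 2 (0.114). With scaling by library size alone both calls were lost, at -0.08 (adjusted p = 0.438) for MTOR and -0.09 (adjusted p = 0.333) for AKT2. Both were also lost when each library had to hold at least 10 counts of a gene (adjusted p = 0.158 for MTOR and 0.117 for AKT2), and that for MTOR with protein-coding genes only (0.0515). The values were larger, at -0.41 for MTOR (adjusted p = 1.96e-06) and -0.67 for AKT2 (adjusted p = 8.7e-10), with the length and GC trend removed, and that for MTOR was -0.29 (adjusted p = 0.000756) without compound 1 replicate 1. RPTOR did not pass, with a difference of -0.04 (95% interval -0.24 to 0.16, edgeR adjusted p = 0.725), but passed at -0.42 with the length and GC trend removed (adjusted p = 2.83e-05).

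Ratios of 2 genes counted in the same library do not depend on the scaling between libraries. The RPTOR to RICTOR ratio, which sets the mTORC1 scaffold against the mTORC2 scaffold at the level of counts, was 3.71, 3.04 and 3.22 in DMSO and 1.73, 1.53 and 1.75 in SCH772984. The AKT1 to AKT2 ratio was 1.34, 1.41 and 1.38 in DMSO and 0.824, 0.823 and 0.798 in SCH772984, so AKT1 passed from more to fewer counts than AKT2. Counts were not divided by gene length here. Per kb of the gene length, AKT1 (11.5 CPM) and AKT2 (10.5 CPM) had overlapping libraries in SCH772984. For both ratios the groups did not overlap (two-sided exact permutation test, n = 3 against 3, p = 0.1, the smallest this design allows, and 0.3 after Benjamini-Hochberg adjustment over 6 tests). The TSC1 to TSC2 ratio overlapped, with 0.693, 0.565 and 0.507 in DMSO and 0.786, 0.683 and 0.663 in SCH772984 (exact permutation p = 0.3, adjusted 0.6). In compound 1 all 3 ratios overlapped those in DMSO (exact permutation p = 0.5 to 0.7, each 0.7 after adjustment), with means of 3.01, 1.44 and 0.617 for RPTOR to RICTOR, AKT1 to AKT2 and TSC1 to TSC2.

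**Figure D3:**
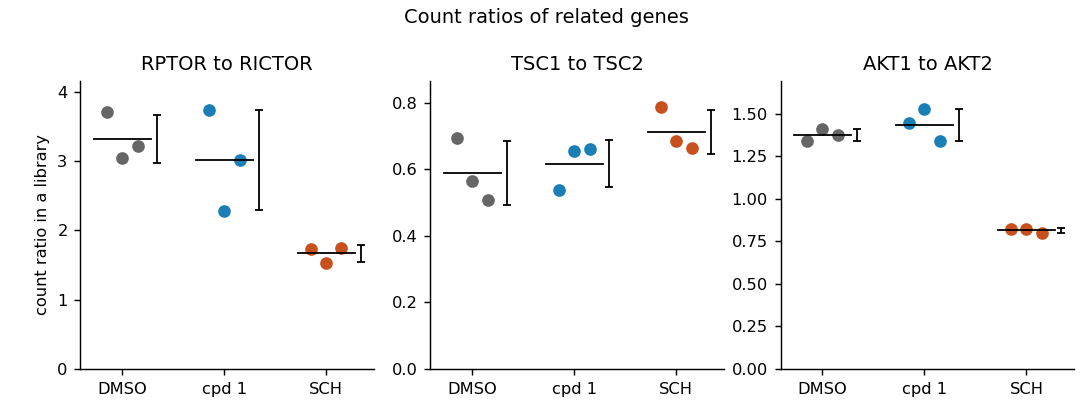
Ratio of the counts of 2 genes within each library, on axes that start at 0, with DMSO in gray, compound 1 (cpd 1) in blue and SCH772984 (SCH) in orange; lines are means and bars the SD over 3 libraries. The orange points lie under the others for RPTOR to RICTOR (mean 1.67) and AKT1 to AKT2 (mean 0.815), and overlap the gray points for TSC1 to TSC2.

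MTOR holds another gene within it on the other strand. ANGPTL7, which encodes a secreted angiopoietin-like protein, lies at chr1:11189341-11195981 on the plus strand, 66.5 to 73.2 kb from the MTOR start, in the intron between exons 28 and 29 of the principal MTOR transcript of 58 exons. It shares 0 exon bases with MTOR. Its counts were 1, 0 and 0 in DMSO, 0, 0 and 0 in compound 1 and 157, 136 and 149 in SCH772984. ANGPTL7 was thus detected in the SCH772984 libraries, with at most 1 count in each of the other 6, and the counts of MTOR in the SCH772984 libraries were 2351, 2162 and 2738.

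**Figure D4:**
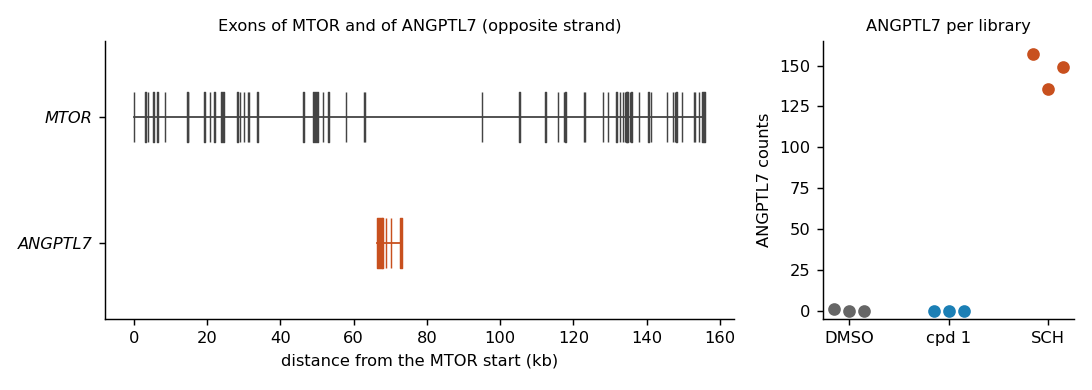
Left, exons of the principal MTOR transcript (gray) and of ANGPTL7 (orange) by distance from the MTOR start in kb; right, ANGPTL7 counts in each library, with DMSO in gray, compound 1 (cpd 1) in blue and SCH772984 (SCH) in orange. No MTOR exon falls within ANGPTL7, which has 136 to 157 counts with SCH772984 and 0 or 1 in the other 6 libraries.

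Other genes share exon bases with the pathway genes, and whether reads were counted by strand is not given in the sources used here. OSMR, the oncostatin M receptor gene, shares 229 bases with RICTOR (1.69% of its exons) and went from 898 to 1143 counts in DMSO to 363 to 539 in SCH772984, opposite to RICTOR. PKD1, the polycystin gene next to TSC2, shares 778 bases (3.96% of the TSC2 exons) and went from 1483 to 1732 counts to 2509 to 3459, in the direction of TSC2. NTHL1 shares 402 bases with TSC2, GFI1B 349 with TSC1 and AC127496.1 133 with RPTOR, and AP005717.1, with at most 4 counts in a library, shares 252 with DEPTOR. AL583722.2 and MTOR-AS1, antisense genes within AKT1 and MTOR, had 0 counts. AC127496.4 and AC127496.3 share 71 and 57 bases with RPTOR and had at most 1 count in a library. The remaining overlapping genes share 0 exon bases, and of these AC118344.1 in AKT2 had 2 to 16 counts, MIR641 in AKT2 and AC016245.1 in RPTOR at most 3, ETF1P2 in RHEB at most 2 and RPL31P7 in RPTOR at most 1. RNU6-537P, RNU6-291P and RPL39P6 in MTOR, AIG1P1 in RICTOR, RNA5SP277 in DEPTOR and MIR548AW in TSC1 had 0. The part of shared bases in the results was not tested.

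The 5 genes whose levels followed MTOR most closely over the 9 libraries, among 10473 genes with a mean of at least 5 CPM, were PRPF8, a core spliceosome gene (Pearson r = 0.992 in log2 CPM), ARHGAP35 (0.989), TLN1, the talin gene (0.989), POLR1A, the large subunit of RNA polymerase I (0.981), and NFATC3 (0.979). These are descriptions over libraries that fall into treatment groups and share their scaling. PRPF8 went from 1057 CPM in DMSO to 803.6 in compound 1 and 674.4 in SCH772984, and POLR1A from 234.6 to 190 and 151.5. For MTOR the means were 266, 216.8 and 185.2 CPM.

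Beyond the 9 genes, 92 genes of the wider pathway were read from 6 lists, of which 84 could be tested. With SCH772984, 26 fell and 33 rose, against 35.5% and 37.2% of all genes, and scaling by library size alone gave 20 and 42, where 3911 and 6242 of the 13834 genes tested passed. The median log2 fold change over these genes was 0.06. Named by rule are the largest called rise and fall of each list among genes with a mean of at least 5 CPM and libraries apart from DMSO, and others were chosen after their values were seen.

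The lysosomal arm, which reports amino acids to mTORC1, had 16 of 29 tested genes higher and 6 lower, against 37.2% and 35.5% of all genes. The median log2 fold change of this list was 0.32. RRAGD, which encodes a Rag GTPase that recruits mTORC1 to the lysosome, rose from 16.0 ± 1.70 to 39.5 ± 2.02 CPM (SD, n = 3 libraries, log2 fold change 1.32, SE 0.11, edgeR adjusted p = 4.83e-15). RRAGB (1.32) and RRAGC (1.29) also rose, and RRAGA was at 0.07 (edgeR adjusted p = 0.457). FLCN, the folliculin gene whose product acts on RRAGC and RRAGD, rose by 1.2 (edgeR adjusted p = 1.12e-16). The stress-induced sestrins SESN1 (1.06) and SESN2 (0.84), which restrain mTORC1, rose as well. SEH1L, a GATOR2 subunit that also belongs to the nuclear pore, fell by 1.54 (SE 0.07, edgeR adjusted p = 2.46e-23), from 147.2 ± 4.95 to 50.0 ± 1.81 CPM, and the GATOR2 subunits SEC13 (-0.68) and MIOS (-0.50) fell, whereas WDR59 rose (0.55) and WDR24 was at -0.06 (edgeR adjusted p = 0.713).

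Among mTOR complex partners, 3 of 7 tested genes fell and 0 rose (median -0.13), against 35.5% and 37.2% of all genes. TELO2, which encodes a chaperone factor needed for the stability of mTOR and related kinases, fell from 98.4 ± 4.75 to 44.9 ± 7.6 CPM (log2 fold change -1.11, SE 0.08, edgeR adjusted p = 3.85e-15). Its partner TTI1 fell by 0.87 (edgeR adjusted p = 2.34e-12), and MAPKAP1, the mTORC2 subunit SIN1, by 0.61 (edgeR adjusted p = 9.03e-11). MLST8, shared by both complexes, was at -0.13 (edgeR adjusted p = 0.236), and TBC1D7, the third TSC subunit, at -0.08 (edgeR adjusted p = 0.612).

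Of the 12 tested genes of the PI3K arm, which feeds AKT, 2 fell and 5 rose (median 0.07), against 35.5% and 37.2% of all genes. PIK3R3, a regulatory PI3K subunit, rose from 32.5 ± 3.02 to 138.3 ± 6.26 CPM (log2 fold change 2.11, SE 0.08, edgeR adjusted p = 1.14e-26). PIK3CB, a catalytic subunit, fell by 0.61 (SE 0.08, edgeR adjusted p = 8.8e-09), PIK3CD rose by 1.07 and INPPL1, a lipid phosphatase gene, by 1.10.

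Energy and stress inputs were mixed, with 4 of 9 tested genes lower and 2 higher (median -0.01), against 35.5% and 37.2% of all genes. DDIT4L, which encodes an inhibitor of mTORC1, fell by 1.27 (SE 0.08, edgeR adjusted p = 2.23e-18), whereas its paralogue DDIT4 rose by 0.36 (edgeR adjusted p = 0.00117). The DDIT4 libraries of SCH772984 (39.7 to 53.38 CPM) overlapped those of DMSO (33.05 to 40.65 CPM). PRKAB2, a subunit of the energy sensor AMPK, rose by 0.73 (SE 0.13, edgeR adjusted p = 3.66e-06), and the catalytic subunit PRKAA1 fell by 0.71.

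The list of mTORC1 substrates also holds the cap-binding factor EIF4E, and not every other member is a direct substrate. Of the 16 tested genes on the list, 8 fell and 4 rose (median -0.23), against 35.5% and 37.2% of all genes. EIF4EBP1, the translational repressor 4E-BP1, fell from 111.1 ± 4.01 to 29.3 ± 4.77 CPM (log2 fold change -1.90, SE 0.09, edgeR adjusted p = 5.52e-23). EIF4EBP2 (-0.75) and EIF4E (-0.85), which is not itself a substrate but is bound by these repressors, fell too. PDCD4, another inhibitor of translation, rose from 22.5 ± 0.55 to 60.1 ± 3.76 CPM (1.44, SE 0.09, edgeR adjusted p = 1.11e-18), and the autophagy kinase ULK1 rose by 1.26 (edgeR adjusted p = 5.52e-17). The S6 kinase genes RPS6KB1 (-0.08, edgeR adjusted p = 0.385) and RPS6KB2 (-0.19, edgeR adjusted p = 0.0537) did not pass.

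Of 11 tested AKT and mTORC2 substrates, 3 fell and 6 rose (median 0.40), against 35.5% and 37.2% of all genes. FOXO4, a transcription factor that AKT keeps out of the nucleus, rose from 1.92 ± 0.37 to 9.86 ± 0.71 CPM (log2 fold change 2.38, SE 0.22, edgeR adjusted p = 5.34e-13), and it reached the mean of 5 CPM that the naming rule asks for only through the SCH772984 libraries. FOXO1 (1.32, edgeR adjusted p = 0.000263) and FOXO3 (1.28, edgeR adjusted p = 6.59e-13) rose as well. TBC1D1, a regulator of glucose transporter traffic, fell by 0.49 (SE 0.13, edgeR adjusted p = 0.000733). Its paralogue TBC1D4, at a lower CPM (3.47 ± 0.87 in DMSO and 1.90 ± 0.27 in SCH772984), fell by 0.85 (edgeR adjusted p = 0.00975). SGK1, with the highest CPM in DMSO among the kinase genes of this list (348.8 ± 19.7, not scaled by length), was at 0.12 (edgeR adjusted p = 0.0641).

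**Figure D5:**
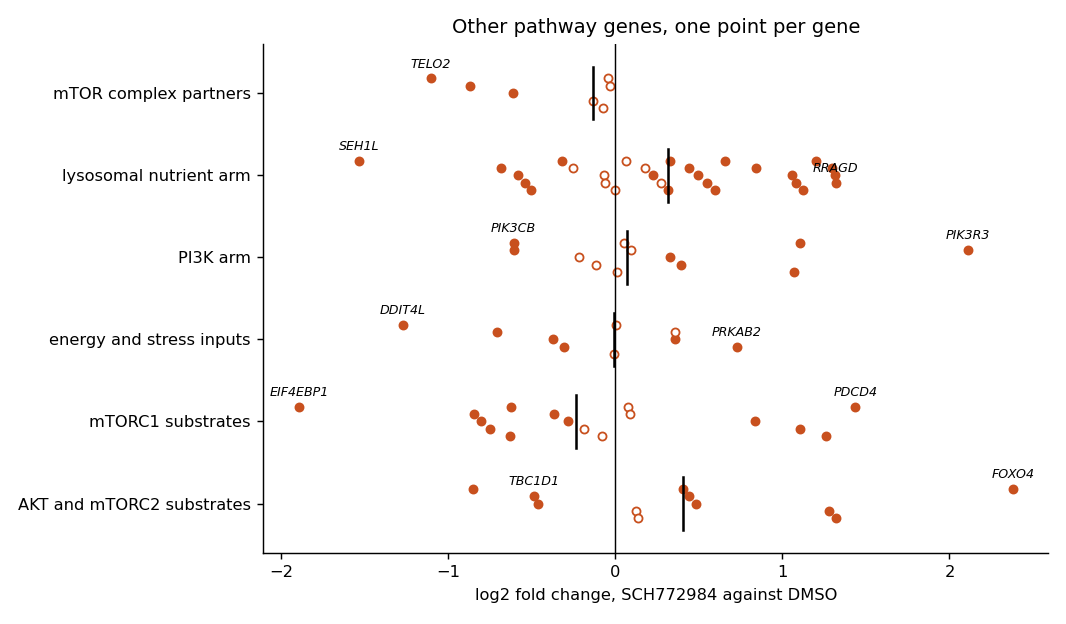
Log2 fold change with SCH772984 against DMSO for the 84 tested genes of the 6 pathway lists, 1 point per gene, filled where the edgeR adjusted p is under 0.05; black bars are list medians and the named genes are the largest called rise and fall of each list among genes with a mean of at least 5 CPM. Points lie on both sides of 0 in each list but mTOR complex partners, where the 7 tested genes lie from -1.11 to -0.03.

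With compound 1, 0 of the 84 genes passed the adjusted threshold in edgeR's quasi-likelihood test. At an unadjusted p under 0.05, 4 were lower and 3 higher, against 7.69% and 7.35% of all genes. DESeq2 called 1 lower after adjustment, where 119 of all 12849 genes tested were lower. Without compound 1 replicate 1, 8 were lower and 1 higher after adjustment, where 798 and 453 of 13084 genes tested passed. The median log2 fold change was -0.02 over these genes and 0.00 over all genes tested. PRKCA, a protein kinase C gene and mTORC2 substrate, was at 17.9 ± 3.04 CPM against 26.0 ± 2.68 in DMSO (log2 fold change -0.52, edgeR adjusted p = 0.0811). PRKCA rose with SCH772984 (0.44, edgeR adjusted p = 0.000156). FLCN was at 0.31 with compound 1 (edgeR adjusted p = 0.164) and RRAGC at 0.31 (edgeR adjusted p = 0.234). Relative to compound 1, 21 of the 84 genes were lower and 31 higher in SCH772984, against 32.6% and 33.7% of all genes.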

How the data were processed

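Total RNA from MIA PaCa-2 cells was sequenced and counted by Novogene. Per the labels' processing notes, HISAT2 2.0.5, featureCounts 1.5.0-p3 and hg38 were used. The counting settings are not given in the sources used here. The authors deposited raw read counts per gene for 9 libraries, and identifiers and coordinates of all 58735 genes equal those of GENCODE 29. Of these, 29048 had a count. Libraries were grouped by their labels. Each comparison was fitted alone on the whole table in edgeR 4.0.16 (R 4.3.3; TMM factors, filterByExpr with a minimum count of 10 and total of 15, robust quasi-likelihood test), and a gene was called at a Benjamini-Hochberg adjusted p under 0.05. Count ratios were compared by an exact permutation test. SE and intervals come from the fit and cover the spread between libraries and counting error. The edgeR fit of SCH772984 against DMSO was tested on simulated counts. The other steps were not, and the scaling was not tested with changes as common as here.

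The 9 genes, the lists and the tests were chosen with earlier results of these data known. Named from the lists were the genes with the largest called rise and fall at a mean of at least 5 CPM and with no overlap between the groups' libraries, from the likeness to MTOR the 5 highest r, and the genes overlapping one of the 9. Alternatives were RLE factors, library size alone, DESeq2 1.42.0, no filter, a stricter filter (at least 10 counts per library throughout), a joint fit of all 9 libraries, a replicate block, protein-coding genes only, an unadjusted p and each library left out. Added after seeing the data were a correction for the trends with GC content and gene length, and the principal transcript's length. Values of some genes on the lists are not reported here.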

Additional observations from a re-analysis of the deposited data

How the results depend on the processing

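With SCH772984 against DMSO, 5 genes were lower under all 16 alternatives and 3 or 4 higher, DEPTOR counted. For compound 1, 0 genes passed as reported, but 2 (MTOR and RPTOR) with no filter, with the replicate block or at an unadjusted p, and 1 (MTOR) with the length and GC trend removed; with each library left out it was 0 to 2. Pathway genes lower with compound 1 numbered 2 with no filter and with the replicate block, 1 with all 9 libraries in one fit, with DESeq2 and with the trend removed, 4 at an unadjusted p and 0 to 8 with each library left out, the 8 without compound 1 replicate 1. Those higher numbered 1 with the trend removed, 3 at an unadjusted p and 0 to 1 with each library left out. Over all genes, compound 1 gave 48 lower and 63 higher as reported. Across the alternatives this was 3 to 988 lower and 5 to 945 higher, with 798 and 453 without compound 1 replicate 1. Lower were 228 of 25883 genes with no filter, 219 of 12849 with the replicate block and 97 of 13929 with all 9 libraries in one fit. With DESeq2 119 of 12849 were lower, with the trend removed 225 of 12845, and at an unadjusted p 988 of 12849. Higher were 234 with the trend removed and 945 at an unadjusted p. In the direct comparison, 4 of the 9 genes were lower as reported, but 2 with library size alone (3736 of all 13863 genes tested). It was 2 of 8 with at least 10 counts in every library (3957 of all 12091) and 5 with the trend removed (4773 of all 13856). With each library left out it was 2 to 4 (2 without compound 1 replicate 3 or SCH772984 replicate 2). With the trend removed, the SCH772984 ratio differences (log2) were -1.22 in place of -0.99 for RPTOR to RICTOR, -0.79 in place of -0.75 for AKT1 to AKT2 and 0.56 in place of 0.28 for TSC1 to TSC2. The cause of these shifts was not tested.

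Replicate numbers did not pair the samples (r of same-numbered deviations -0.151 to 0.251, others -0.267 to 0.321). With the replicate block the adjusted p with compound 1 was 0.0232 for MTOR and 0.043 for RPTOR, and 0.0529 for MTOR in the direct comparison. DEPTOR, with 18 counts in all DMSO libraries together, was limited by depth and was not tested where at least 10 counts were required in every library.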
